A study of Mus musculus with 27 samples.

Results

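Dleu2, Zfp367, Fgf13, Otud1, Klf5, P2rx7, Apold1 and Trmo are 8 of the 18193 genes with a probe set on the arrays, and were picked for a signal that was repeatedly higher, by a large margin, in arrays lacking Rb1, with courses in culture that differed between them. All 8 were found, with 16 probe sets in all, and all 8 were among the 10916 genes bright enough to be tested. The picking used the comparisons of Rb1KO with WT and of DKO with p107KO and the culture courses of both Rb1-lacking genotypes, so the values of those comparisons are given as a description and without a test. The arrays of WT and p107KO were the reference for that excess, so their culture courses are described without a test too. The comparisons of the 8 genes that were tested are those of p107KO with WT and of DKO with Rb1KO. Neither is fully independent of the picking, which asked for rises in both Rb1KO and DKO over those reference arrays. Their p-values are given with that limit.

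The arrays measured total RNA of untreated cells from mouse livers at embryonic day 14.5, either fresh (0 h) or after 24 or 48 h in a serum-rich culture medium. WT is wild type, p107KO lacks p107 (gene symbol Rbl1), Rb1KO lacks Rb1 and DKO lacks both. The 12 arrays of fresh cells were 3 WT, 2 p107KO, 5 Rb1KO and 2 DKO. At 24 h the numbers were 2, 2, 4 and 1 in the same order, and at 48 h 2, 1, 2 and 1. The sources used here name neither the strain nor the altered part of each gene nor the means of deletion. They also leave unsaid which arrays share an embryo or litter, so the p-values reflect only how far the arrays scatter, and that scatter may be technical.

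The retinoblastoma protein, the product of Rb1, binds E2F transcription factors and holds back the genes that carry a cell into DNA replication. Its relative p107 does the same with a partly different set of E2F proteins. Most red cells of the mid-gestation mouse embryo are made in the liver, where their precursors leave the cell cycle as they mature, a step for which Rb1 is known to be needed. The 8 genes hold diverse roles: a long noncoding RNA (Dleu2), transcription factors (Zfp367, Klf5), an intracellular relative of the fibroblast growth factors (Fgf13), a deubiquitinase (Otud1), an ion channel opened by extracellular ATP (P2rx7), an apolipoprotein L domain protein (Apold1) and a tRNA methyltransferase (Trmo).

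The targeted genes were read first. At 0 h the signal of Rb1 (probe set 1417850_at) was 6144 to 7105 in WT and 6351 to 6651 in p107KO. It was 1507 to 2825 in Rb1KO and 1377 to 1662 in DKO at that time. At 24 h the Rb1 signal was 8279 to 10309 in WT and p107KO and 2659 to 4600.0 in Rb1KO and DKO. At 48 h it was 5746 to 6583 in WT, 5314 in p107KO, 4207 and 5453 in Rb1KO and 5994 in DKO, which overlap, so this probe set did not check the Rb1 labels of the 48 h arrays, and these are named by their labels throughout. Rbl1 (1424156_at) ran from 70.3 to 168 in all arrays labelled as lacking p107 and from 798 to 3502 in the others. The summed signal of 10 hepatocyte markers was 190522 to 265742 at 0 h and 3184 to 42641 in culture, and that of 8 erythroid markers was 127690 to 156194 and 132628 to 313806, although the probe set of Hba-a1, a globin gene, never passed 124.3. Of the 0 h and 24 h arrays, those with the lowest median correlation with the others of their time were replicate 5 of Rb1KO at 0 h (0.953) and replicate 1 of Rb1KO, DKO and p107KO at 24 h (0.938, 0.951 and 0.947). They are called the 4 arrays apart, a choice made with earlier results known. Arrays where Eif2s3y, a Y-linked gene, gave a signal above 100 are said to have Y-linked signal. These were all 4 DKO arrays, 3 of 11 of Rb1KO, 2 of 5 of p107KO and 0 of 7 of WT.

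The 8 genes are described in 3 groups, by their excess in arrays without Rb1 and their course in arrays with it. Courses differed within the groups too. All 8 had their largest excess of Rb1KO over WT in culture. P2rx7 and Apold1 showed none at 0 h, and the log2 excess of Dleu2 was 0.98 at 0 h and 3.97 at 24 h. Zfp367, Fgf13 and Trmo were higher already at 0 h and had a wider excess at 48 h, when the signal of the arrays with Rb1 was lower than at 0 h. Otud1 and Klf5 were also higher from the start. In the arrays with Rb1 the level of Otud1 was flat over culture and that of Klf5 was higher at 48 h. On average over the 3 culture times the log2 difference of Rb1KO from WT, measured as log2(signal + 32), ranged from 1.55 ± 0.14 (SE) for Klf5 to 2.83 ± 0.13 for Dleu2, and that of DKO from p107KO ranged from 1.13 ± 0.20 for Klf5 to 3.02 ± 0.19 for Dleu2. All 8 were past the threshold upward in both comparisons, which the picking ensured. Of all tested genes limma called 10.4% higher for Rb1KO (19.0% in either direction) and 4.49% higher for DKO (7.13% in either direction). Among all tested genes ranked by difference in Rb1KO, Dleu2 stood at 2, Zfp367 at 4, Fgf13 at 5, Otud1 at 9, P2rx7 at 14, Apold1 at 16, Trmo at 21 and Klf5 at 23. In DKO against p107KO their ranks were 4, 7, 38, 10, 9, 11, 59 and 80 in the same order. The genes ranked just around the 8 in Rb1KO, such as Nanos1 (2.22 ± 0.17, rank 6) and Rad51c (1.65 ± 0.13, rank 18), were not picked. Klf5, the member ranked lowest, stood at 1.55 just inside the set, although the picking had no numeric threshold.

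**Figure D1:**
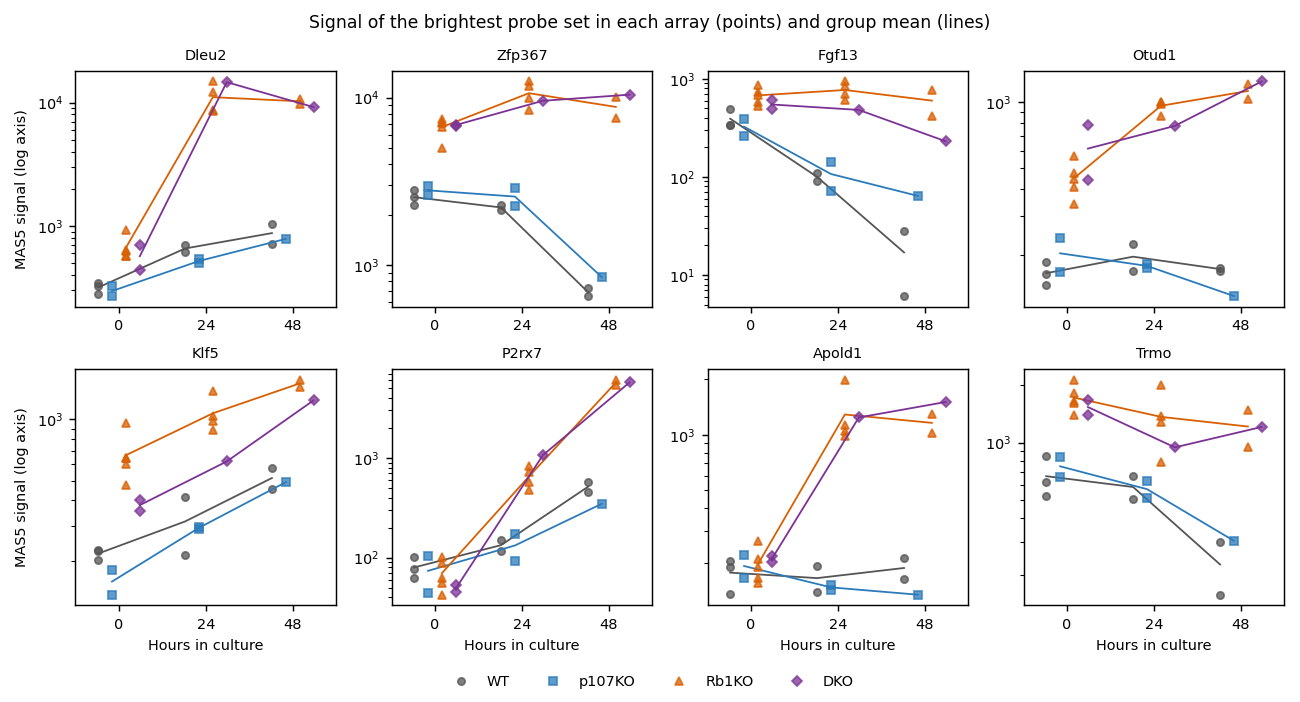
MAS5 signal (log axis) of the brightest probe set of each gene against hours in culture, with 1 point per array, a colour and marker per genotype and lines through the group means. At 24 and 48 h every Rb1KO and DKO array lies above every WT and p107KO array in all 8 panels, while at 0 h the points of P2rx7 and Apold1 are mixed.

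By the brightest probe set of each gene, all Rb1KO and DKO arrays lay above all WT and p107KO arrays for 5 of the 8 genes at 0 h, for 8 at 24 h and for 8 at 48 h. Over all tested genes the same separation held for 1.72%, 5.30% and 15.6% at those times. Dleu2, Zfp367, Otud1, Klf5 and Trmo (5 of the 8) were separated at each time, against 0.815% of all tested genes. Rb1KO arrays alone lay above all WT arrays for 6 of the 8 at 0 h (3.50% of all tested genes), for all 8 at 24 h (12.3%) and 48 h (23.0%), and for 6 at each time (1.65%). The genes were picked on these arrays, so nothing is read from these counts. In such bulk samples, fewer cells of a type and less RNA per cell cannot be told apart.

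Dleu2 is a long noncoding RNA gene on chromosome 14, the chromosome that also carries Rb1. Its transcript is the host of the microRNAs miR-15a and miR-16-1, which are known to restrain cyclins of the G1 phase, and the human locus is deleted in many chronic lymphocytic leukaemias. The mature sequences from RefSeq (GRCm38.p6) are shown because they are the known products of this locus. They lie on the minus strand, at chr14:61632075-61632096 for miR-15a-5p and chr14:61631936-61631957 for miR-16-5p, and the capitals mark the seed (bases 2 to 8), which both share. The arrays did not measure the microRNAs.
mmu-miR-15a-5p: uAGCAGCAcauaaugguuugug
mmu-miR-16-5p: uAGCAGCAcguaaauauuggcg

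At 0 h the Dleu2 signal (1427410_at) was 326, 279 and 345 in WT, 323 and 270.1 in p107KO, 634, 573, 622, 572 and 928 in Rb1KO and 441 and 695 in DKO. At 24 h it was 697 and 615 in WT and 499.9 and 539 in p107KO, against 14839, 8722, 8477 and 12158 in Rb1KO and 14622 in DKO. At 48 h WT gave 712 and 1037, p107KO 785, Rb1KO 10702 and 9757 and DKO 9180.0. By this probe set the Rb1-lacking arrays were thus modestly higher in fresh liver and more than an order of magnitude higher at 24 h. They did not overlap with the others at any time. The log2 difference of Rb1KO from WT was 0.98 ± 0.19 at 0 h, 3.97 ± 0.23 at 24 h (15.7-fold) and 3.52 ± 0.26 at 48 h, and that of DKO from p107KO was 0.84 ± 0.26, 4.73 ± 0.32 and 3.49 ± 0.37. Without the 4 arrays apart, which drops the only DKO array of 24 h, the average for DKO against p107KO was 2.17 in place of 3.02.

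The 3 Dleu2 probe sets disagreed. In culture 1427411_s_at followed the brightest probe set, with 355 and 404 in WT and 3691, 2608, 3208 and 4065 in Rb1KO at 24 h. At 0 h it gave 117 to 275 in WT, 229 to 398 in Rb1KO and 226 to 292 in DKO, which overlap. 1456145_at did not separate the genotypes at 0 h, where WT gave 390.3 to 661 and Rb1KO 460.2 to 704. At 48 h this probe set gave 102 and 136 in WT against 279 and 438 in Rb1KO and 599 in DKO. The average difference of Rb1KO from WT was 2.18 ± 0.14 for 1427411_s_at and 0.72 ± 0.16 for 1456145_at. The sources used here do not say which Dleu2 transcripts each probe set reads. The excess in culture was thus large by the first pair of probe sets. By 1456145_at it was smaller, and at 24 h WT (185 and 323) and Rb1KO (278 to 653.5) overlapped.

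Zfp367 encodes a zinc finger transcription factor on chromosome 13, first described in human cells as an activator of the fetal gamma-globin promoter. It was among the brighter genes on the arrays (percentile 95.5 of all genes by mean signal). In fresh cells the signal was 2554, 2273 and 2796 in WT, 2621 and 2962 in p107KO, 7149, 6659.9, 7029, 5014 and 7487 in Rb1KO and 6908 and 6808 in DKO. After 24 h it was 2279 and 2133 in WT and 2880.3 and 2245 in p107KO, against 11722, 8378, 9902 and 12505 in Rb1KO and 9570.0 in DKO. At 48 h WT gave 652 and 725 and p107KO 845, while Rb1KO gave 7574 and 10025 and DKO 10416. The genotypes did not overlap at any time, and the gap widened in culture, from 1.37 ± 0.15 (log2, Rb1KO against WT) at 0 h to 2.24 ± 0.18 at 24 h and 3.60 ± 0.20 at 48 h (12.2-fold). For DKO against p107KO the same differences were 1.29 ± 0.20, 1.90 ± 0.25 and 3.57 ± 0.29. The dim second probe set, 1438772_at, showed an average difference of 1.32 ± 0.16 for Rb1KO, although its DKO array at 24 h (157) lay below both p107KO arrays (206 and 259.7).

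Trmo, on chromosome 4, encodes an enzyme that methylates the base next to the anticodon of certain tRNAs. In fresh liver it gave 621, 519.7 and 854 in WT, 655 and 843 in p107KO, 1608, 1393, 1662, 2136 and 1831 in Rb1KO and 1394 and 1682 in DKO. After 24 h the signal was 664 and 502 in WT, 624 and 512 in p107KO, 793, 1386, 1277 and 2007 in Rb1KO and 943 in DKO. After 48 h the signal was 298 and 158 in WT, 303 in p107KO, 951 and 1478 in Rb1KO and 1209 in DKO. Rb1-lacking arrays were higher throughout, but by the smallest margin at 24 h, where replicate 1 of Rb1KO came close to WT. The log2 difference of Rb1KO from WT was 1.35 ± 0.24 at 0 h, 1.13 ± 0.29 at 24 h and 2.28 ± 0.33 at 48 h, and that of DKO from p107KO was 1.01 ± 0.33, 0.71 ± 0.41 and 1.89 ± 0.47. Trmo has a single probe set.

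The promoters of Zfp367 and Trmo held letters of the kind that E2F proteins are known to bind. RefSeq promoter windows (GRCm38.p6), reaching from 250 bases before to 50 bases after a gene's start, were searched on both strands for TTTCCCGC, TTTGGCGC, TTTCGCGC and TTTGCCGC. A match occurred in 2.26% of 32851 windows and, counting any window of a gene, in 2.60% of 27025 genes and in 23 of 53 E2F target genes for G1/S entry and DNA replication. Windows were at hand for 7 of the 8 genes, and 3 of them held a match: Zfp367 in both of its windows, Trmo in both of its overlapping windows, and Fgf13 in 1 of 4, with its first base at -227 from that start. In the first Zfp367 window TTTCGCGC began at -19 and TTTCCCGC at -5, without overlap, and in that of Trmo TTTGGCGC began at -39. No match was found in the windows of Dleu2, Otud1, P2rx7 and Apold1, which says only that these letters are not there. The Zfp367 and Trmo windows are printed for their matches, and the Dleu2 window for comparison, as the gene with the largest excess and no match. All 3 genes lie on the minus strand, at chr13:64153150-64153449 (Zfp367), chr4:46389374-46389673 (Trmo) and chr14:61682324-61682623 (Dleu2), and the capitals mark the matches, which here read as the reverse complement. A match is a description of letters and not of binding.
Zfp367: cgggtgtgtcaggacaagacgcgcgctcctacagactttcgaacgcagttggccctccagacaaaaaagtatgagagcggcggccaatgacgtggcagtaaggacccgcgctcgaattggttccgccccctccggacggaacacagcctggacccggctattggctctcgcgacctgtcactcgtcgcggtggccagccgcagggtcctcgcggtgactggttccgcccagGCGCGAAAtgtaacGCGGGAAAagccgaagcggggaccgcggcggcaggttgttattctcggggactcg
Trmo: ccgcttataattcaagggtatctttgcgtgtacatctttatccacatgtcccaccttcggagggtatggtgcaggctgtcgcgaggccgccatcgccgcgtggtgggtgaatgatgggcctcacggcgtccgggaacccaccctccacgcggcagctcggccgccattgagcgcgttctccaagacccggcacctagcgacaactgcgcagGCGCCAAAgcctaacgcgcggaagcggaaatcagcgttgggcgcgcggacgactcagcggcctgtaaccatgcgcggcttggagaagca
Dleu2: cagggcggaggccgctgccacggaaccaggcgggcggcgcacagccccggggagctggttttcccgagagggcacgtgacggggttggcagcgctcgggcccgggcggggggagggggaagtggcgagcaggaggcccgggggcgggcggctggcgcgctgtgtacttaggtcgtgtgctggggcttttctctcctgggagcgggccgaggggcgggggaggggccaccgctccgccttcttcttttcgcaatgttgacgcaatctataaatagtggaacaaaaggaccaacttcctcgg

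Fgf13, on the X chromosome, encodes a fibroblast growth factor homologous factor, a protein that stays inside the cell and binds voltage-gated sodium channels and microtubules. Its signal at 0 h was 494, 341 and 341 in WT, 262 and 388 in p107KO, 579.9, 688, 861, 525 and 733 in Rb1KO and 489 and 606 in DKO, and 1 DKO array lay within the range of WT. Its signal at 24 h was 90.5 and 109.6 in WT, 72.3 and 142 in p107KO, 942, 692, 605 and 838 in Rb1KO and 482 in DKO. Its signal at 48 h was 28.0 and 6.1 in WT, 64.0 in p107KO, 422 and 777 in Rb1KO and 230.4 in DKO. In WT the Fgf13 signal at 48 h was thus at the floor of the arrays, in Rb1KO it was near its 0 h level, and the DKO array of 48 h lay between the genotypes. The log2 difference of Rb1KO from WT grew from 0.74 ± 0.24 at 0 h to 2.59 ± 0.28 at 24 h and 3.66 ± 0.33 at 48 h, and that of DKO from p107KO was 0.71 ± 0.33, 1.93 ± 0.40 and 1.45 ± 0.46. With WT at the floor the size at 48 h rests on the added constant: the average for Rb1KO was 3.01 with 1 added in place of 32 and 1.77 with 100. The second probe set, 1418498_at, was dim on all arrays (3.7 to 113) and showed an average difference of 0.29 ± 0.23 for Rb1KO. Within Rb1KO, the arrays with Y-linked signal gave 861, 692 and 777 at 0, 24 and 48 h, and those without gave 525 to 733, 605 to 942 and 422.

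Otud1, on chromosome 2, encodes a deubiquitinase of the ovarian tumour (OTU) family. Fresh cells gave 163, 185 and 145 in WT, 239 and 166 in p107KO, 446, 474, 409.9, 342 and 569 in Rb1KO and 439 and 787 in DKO. Cells of 24 h gave 168 and 223 in WT, 181 and 174 in p107KO, 1007, 861, 982 and 1004 in Rb1KO and 779 in DKO. Cells of 48 h gave 174 and 169 in WT, 129 in p107KO, 1035 and 1217 in Rb1KO and 1247 in DKO. The arrays with Rb1 kept a similar low level through the course, and those without it lay clear of them at every time. The log2 difference of Rb1KO from WT was 1.28 ± 0.19, 2.14 ± 0.22 and 2.50 ± 0.25 at 0, 24 and 48 h, and that of DKO from p107KO was 1.42 ± 0.25, 1.95 ± 0.31 and 2.99 ± 0.36.

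Klf5, on chromosome 14 like Dleu2 and Rb1, encodes a Krüppel-like transcription factor known for its activity in dividing epithelial and stem cells. The 0 h signal of 1451021_a_at was 228, 224 and 202 in WT, 181 and 137 in p107KO, 647, 642, 476, 959 and 605 in Rb1KO and 402 and 354 in DKO. The 24 h signal was 414 and 214 in WT, 296 and 289 in p107KO, 1383, 1038, 978 and 883 in Rb1KO and 620.5 in DKO. The 48 h signal was 576 and 453 in WT, 491 in p107KO, 1562 and 1443 in Rb1KO and 1241 in DKO. In every genotype the arrays of 48 h lay above those of 0 h. The excess of Rb1KO over WT was 1.45 ± 0.20 at 0 h, 1.71 ± 0.24 at 24 h and 1.50 ± 0.28 at 48 h on the log2 scale, and that of DKO over p107KO was 1.11 ± 0.28, 1.01 ± 0.34 and 1.28 ± 0.39. The DKO arrays lay below every Rb1KO array at each of the 3 times. Of the other probe sets, 1430255_at was near the floor (2.4 to 59.8) and 1451739_at showed average differences of 0.76 ± 0.17 for Rb1KO and 0.23 ± 0.23 for DKO.

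P2rx7, on chromosome 5, encodes a cation channel opened by extracellular ATP, best known in macrophages, where it triggers the release of interleukin 1. In fresh liver the signal of 1419853_a_at was 61.9, 76.7 and 100.2 in WT, 104 and 43.6 in p107KO, 101, 62.9, 42.4, 87.4 and 55.5 in Rb1KO and 52.6 and 45.3 in DKO. By 24 h the signal was 116 and 150.1 in WT, 92.3 and 172 in p107KO, 822, 575, 479 and 727 in Rb1KO and 1064 in DKO. By 48 h the signal was 451 and 576 in WT, 347 in p107KO, 6057 and 5359 in Rb1KO and 5748 in DKO. The genotypes were mixed in fresh liver, separate at 24 h and about an order of magnitude apart at 48 h. The log2 difference of Rb1KO from WT was -0.15 ± 0.24 at 0 h, 2.03 ± 0.28 at 24 h and 3.40 ± 0.33 at 48 h (10.6-fold), and that of DKO from p107KO was -0.32 ± 0.33, 2.78 ± 0.40 and 3.93 ± 0.46 (15.2-fold). 1422218_at repeated the pattern at a lower level, with 62.7 and 104 in WT, 1879 and 1580.2 in Rb1KO and 1796 in DKO at 48 h. 1439787_at gave 4904 and 1011 in Rb1KO at that time, a wide spread, against 351 and 199 in WT.

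The summed signal of 12 macrophage markers at 48 h was 15828 to 25703 in WT, 13439 in p107KO, 11945 to 23183 in Rb1KO and 14732 in DKO. Of the 11 macrophage markers tested, 0 were called higher and 1 lower in Rb1KO than in WT by limma (adjusted p under 0.05). Over all tested genes 10.4% were called higher and 8.66% lower. The part of macrophages in the P2rx7 values was not tested. Of 9 megakaryocyte markers, 6 were lower and 0 higher in Rb1KO, against 8.66% and 10.4% of all tested genes. Their median was -0.54 on the log2 scale against -0.07 for all tested genes. In DKO against p107KO, 1 of these 9 markers was lower and 0 higher (2.64% and 4.49% of all tested genes), with a median of -0.37. Their summed signal at 48 h was 76176 to 77372 in WT, 77226 in p107KO, 48078 to 69053 in Rb1KO and 54563 in DKO, and the part of this difference in the values of the 8 genes was not tested. Of 10 hepatocyte markers, 6 were lower and 0 higher in DKO than in p107KO, against 2.64% of all tested genes called lower. Their median was -1.32 against -0.06 for all tested genes. In Rb1KO against WT, 1 of these 10 markers was lower and 0 higher (8.66% and 10.4% of all tested genes), with a median of -0.34. Their summed signal at 48 h was 3184 in DKO and 25668 in p107KO, and the part of this in the values of DKO was not tested.

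Apold1, on chromosome 6, encodes a protein with an apolipoprotein L domain that is known as an early response gene of the endothelium. Before culture the signal was 137, 192 and 206 in WT, 222 and 166 in p107KO, 265, 157, 168, 192 and 212 in Rb1KO and 204 and 220.1 in DKO. With 24 h of culture it was 139.8 and 193 in WT, 144 and 153 in p107KO, 985, 1134, 1051 and 1982 in Rb1KO and 1241 in DKO. With 48 h of culture it was 165 and 214 in WT, 135 in p107KO, 1296 and 1024 in Rb1KO and 1506 in DKO. Fresh livers of all genotypes overlapped, and in culture the signal stayed flat with Rb1 and was several times higher without it. The log2 difference of Rb1KO from WT was 0.13 ± 0.21, 2.69 ± 0.25 and 2.43 ± 0.29 at 0, 24 and 48 h, and that of DKO from p107KO was 0.12 ± 0.29, 2.82 ± 0.36 and 3.20 ± 0.42. The summed signal of 12 endothelial markers at 24 h was 1177 to 1221 in WT, 852 to 1385 in Rb1KO and 1263 in DKO. Of the 12, 0 were called higher and 1 lower in Rb1KO than in WT, against 10.4% and 8.66% of all tested genes. The part of endothelial cells in the Apold1 values was not tested.

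**Figure D2:**
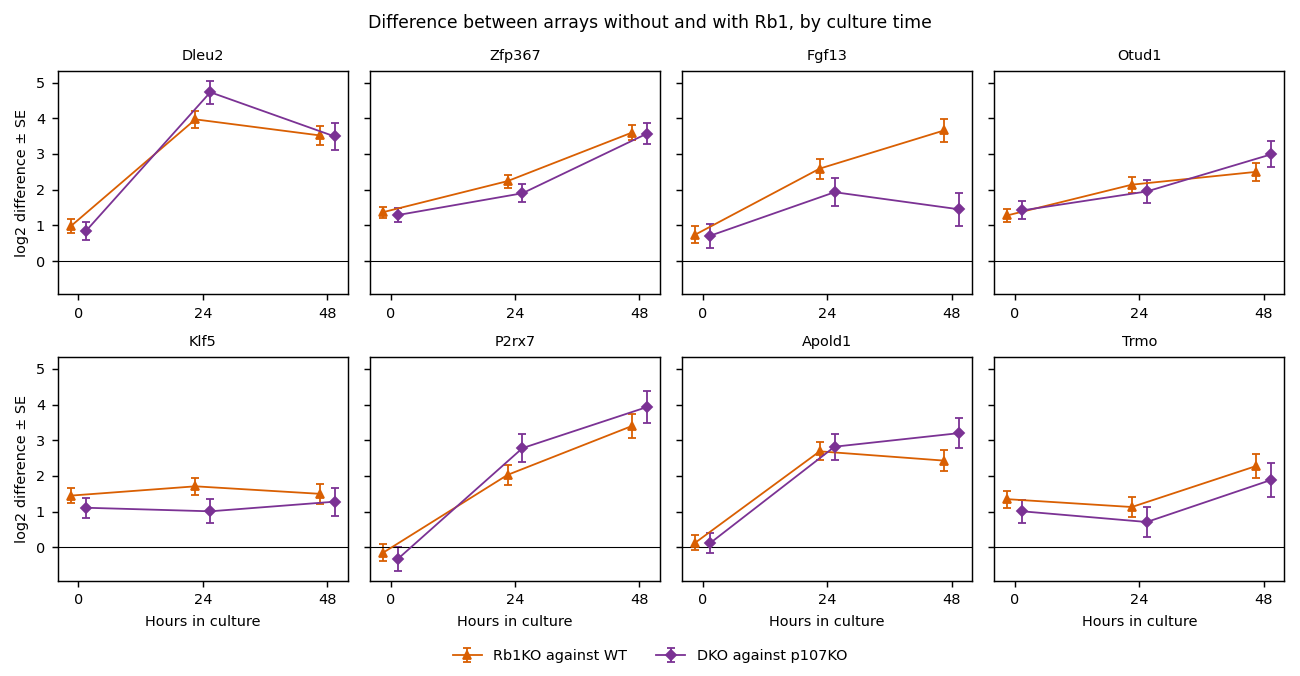
Log2 difference in signal, with its standard error, of Rb1KO from WT (triangles) and of DKO from p107KO (diamonds) at 0, 24 and 48 h of culture. P2rx7 and Apold1 start near 0, Klf5 stays between 1.01 and 1.71 throughout, and Fgf13 is the gene whose lines part most at 48 h (3.66 for Rb1KO and 1.45 for DKO).

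The culture courses in the arrays with Rb1 differed in sign between the genes. At 48 h the brightest probe sets of Dleu2, Klf5 and P2rx7 stood above their 0 h level in both WT and p107KO, those of Zfp367, Fgf13 and Trmo stood below it in both, and Otud1 and Apold1 lay near it in WT. WT and p107KO have no array in common, although the spread was estimated over all arrays. Between 0 and 48 h limma called 50.7% of all tested genes in WT (20.2% higher and 30.5% lower) and 30.0% in p107KO (13.6% higher and 16.4% lower).

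In WT the log2 difference of 48 h from 0 h was 2.29 ± 0.30 (SE) for P2rx7, 1.36 ± 0.24 for Dleu2 and 1.12 ± 0.25 for Klf5. It was -1.83 ± 0.19 for Zfp367 and -1.45 ± 0.30 for Trmo. That of Fgf13 was -3.13 ± 0.30, and with its WT arrays of 48 h at the floor it ran from -4.75 with 1 added in place of 32 to -1.74 with the mean over its probe sets. For the flat genes the 95% intervals ran from -0.42 to 0.54 (Otud1) and from -0.48 to 0.64 (Apold1). In p107KO, where 48 h has a single array, the differences were -1.87 ± 0.40 for Fgf13, -1.68 ± 0.25 for Zfp367 and -1.21 ± 0.41 for Trmo. On the other side of 0 in p107KO stood P2rx7 with 1.90 ± 0.40, Klf5 with 1.46 ± 0.34 and Dleu2 with 1.32 ± 0.32. Otud1 gave -0.53 ± 0.31 and Apold1 -0.42 ± 0.36, with intervals that included 0.

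At 24 h the differences from 0 h were smaller for most of the 8, while limma called 38.1% of all tested genes in WT and 29.3% in p107KO. Dleu2 stood at 0.98 ± 0.24 in WT and 0.75 ± 0.26 in p107KO, and Fgf13 at -1.67 ± 0.30 and -1.38 ± 0.33. Klf5 gave 0.41 ± 0.25 in WT and 0.77 ± 0.28 in p107KO, and P2rx7 0.57 ± 0.30 and 0.65 ± 0.33. Zfp367 and Trmo were still near their 0 h level in both genotypes, with differences between -0.38 and -0.13. Without replicate 1 of p107KO at 24 h the Fgf13 difference in p107KO was -1.02.

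Other probe sets of Dleu2, P2rx7 and Klf5 did not show these courses in the same way. For Dleu2 even the sign depended on the probe set: in WT 1456145_at gave -1.0 ± 0.30 at 24 h and -1.88 ± 0.30 at 48 h against 0 h, and in p107KO -1.01 ± 0.33 and -2.21 ± 0.40, while 1427411_s_at gave 0.92 ± 0.26 and 0.73 ± 0.26 in WT. With the mean over the probe sets, the Dleu2 difference was 0.29 at 24 h and 0.32 at 48 h in WT and 0.05 at 48 h in p107KO. For P2rx7 at 48 h in WT, 1422218_at gave 0.52 ± 0.41 and 1439787_at 0.52 ± 0.52, and the mean over probe sets was 1.27 in place of 2.29. For Klf5 at 48 h, 1451739_at gave 0.23 ± 0.30 in WT and -0.33 ± 0.41 in p107KO, and 1430255_at -0.49 ± 0.33 and -0.17 ± 0.45. The mean over the Klf5 probe sets was 0.69 in WT and 0.65 in p107KO. The higher levels of P2rx7 and Klf5 at 48 h were thus measured by the brightest probe set of each, and less or not at all by the others.

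Markers of several cell types moved in the same WT arrays. Between 0 and 48 h, 10 of 10 neutrophil markers (median 1.85 on the log2 scale) and 6 of 9 megakaryocyte markers (0.91) were called higher, against 20.2% of all tested genes and a median of -0.17. Lower were 10 of 10 hepatocyte markers (median -5.4), 7 of 8 stroma markers (-3.25) and 9 of 12 endothelial markers (-1.48), against 30.5% of all tested genes. The summed signal of the neutrophil markers in WT was 87412 to 116228 at 0 h and 339717 to 343387 at 48 h, and that of the stroma markers was 9637 to 14482 and 1209 to 1632. The part of these shifts in the courses of the 8 genes was not tested.

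**Figure D3:**
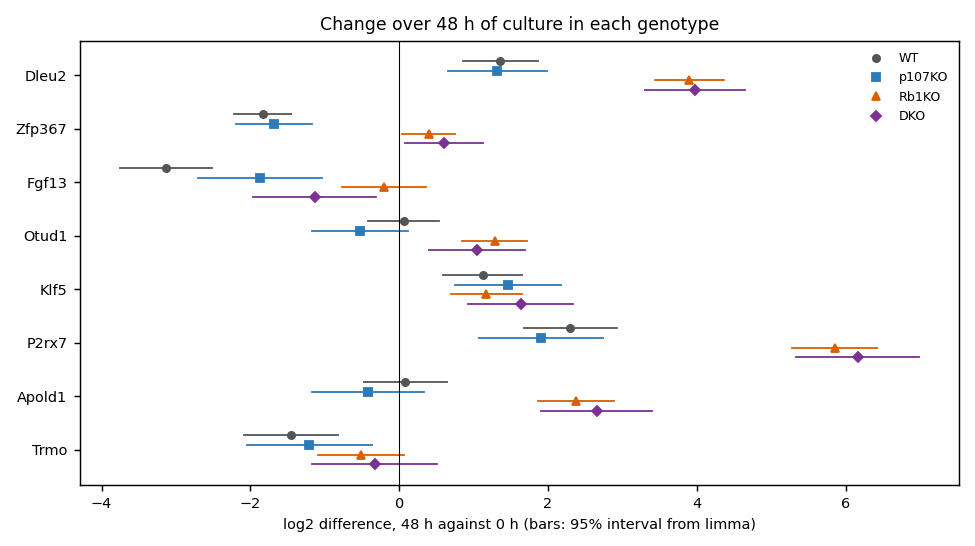
Log2 difference in signal between 48 h and 0 h of culture for each gene in WT (circles), p107KO (squares), Rb1KO (triangles) and DKO (diamonds), with bars for the 95% interval. WT and p107KO lie left of 0 for Zfp367, Fgf13 and Trmo and right of 0 for Dleu2, Klf5 and P2rx7; Rb1KO and DKO lie to the right of both for all genes but Klf5, where the genotypes overlap.

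The mean signal at 48 h, as a percentage of that at 0 h, puts the 4 genotypes side by side as a description. Zfp367 stood at 27.1% in WT and 30.3% in p107KO, and at 132% in Rb1KO and 152% in DKO. Fgf13 stood at 4.35% and 19.7% with Rb1, and at 88.5% and 42.1% without it. Trmo was at 34.2% and 40.5% with Rb1 and at 70.4% and 78.6% without, so at 48 h it stood lower than at 0 h in each genotype. Klf5 reached 236% in WT, 308% in p107KO, 226% in Rb1KO and 328% in DKO.

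**Figure D4:**
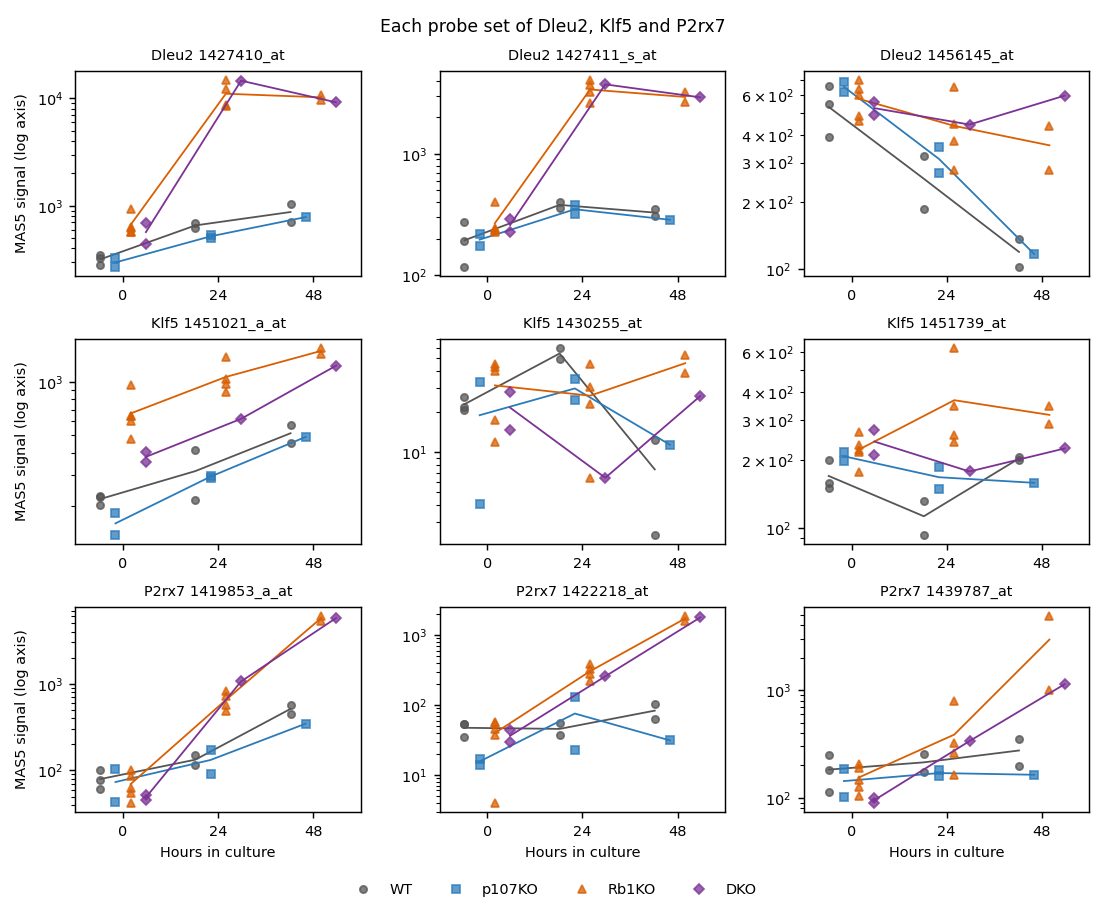
MAS5 signal (log axis) of the 3 probe sets each of Dleu2 (top row), Klf5 (middle) and P2rx7 (bottom) against hours in culture, 1 point per array, with lines through the group means and the brightest probe set at the left. The third Dleu2 probe set is lower in WT at 48 h (102 and 136) than at 0 h, where the first is higher, and the second Klf5 probe set stays under 60 on all arrays.

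Whether p107 loss changed these genes was the question tested, on arrays that the picking also used. With Rb1 present, 0 of the 8 were called between p107KO and WT, where limma called 2 of all 10916 tested genes (0.0183%) and 726 stood at an unadjusted p under 0.05. Both called genes were lower in p107KO: Rbl1 itself (-3.21 ± 0.16, limma adjusted p = 1.85e-11) and Zbtb32, a transcriptional repressor of lymphocytes (-2.10 ± 0.28, adjusted p = 0.000955). The average differences lay between -0.23 ± 0.20 (P2rx7) and 0.26 ± 0.20 (Fgf13), and the 95% intervals of all 8 lay between -0.64 and 0.67. Differences inside these bounds were not resolved by this number of arrays.

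With Rb1 absent, 0 of the 8 were called between DKO and Rb1KO, against 0.999% of all tested genes. That share was 109 genes (0.595% higher and 0.403% lower), with 1680 at an unadjusted p under 0.05. The picking asked for a rise in both genotypes, so the count of 0 is not independent of it. Fgf13 differed by -0.70 ± 0.20 on the log2 scale, with a 95% interval from -1.12 to -0.28 (limma adjusted p = 0.0860), and Klf5 by -0.58 ± 0.17, interval -0.94 to -0.22 (adjusted p = 0.0980). Neither passed the threshold, while with array weights both did (limma adjusted p = 0.0294 and 0.0378), and with the replicate block Klf5 did (-0.70, adjusted p = 0.042). Over all alternatives the adjusted p ranged from 0.0294 to 0.621 for Fgf13 and from 0.0378 to 0.723 for Klf5, and the difference itself from -0.84 to -0.45 and from -0.74 to -0.50. By time, the Fgf13 difference was -0.28 ± 0.27 at 0 h, -0.62 ± 0.37 at 24 h and -1.21 ± 0.40 at 48 h, and that of Klf5 was -0.73 ± 0.23, -0.74 ± 0.31 and -0.27 ± 0.34. All 4 DKO arrays and 3 of 11 Rb1KO arrays had Y-linked signal, and Fgf13 is X-linked. The 3 Rb1KO arrays with Y-linked signal gave 861, 692 and 777 for Fgf13 at 0, 24 and 48 h, and the DKO arrays of the same times 489 and 606, 482 and 230.4. That is 1 such Rb1KO array at each time, and the part of sex in the Fgf13 difference was not tested. The other 6 genes differed by -0.19 to 0.16, with intervals between -0.62 and 0.56.

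The excess made by Rb1 loss was then compared between arrays without and with p107, as the difference of DKO from p107KO minus that of Rb1KO from WT. No gene of 10916 was called by limma (0%), with 492 at an unadjusted p under 0.05. Both excesses were used by the picking, so the values of the 8 are a description. That of Fgf13 was -0.96 ± 0.28, and with its WT arrays of 48 h at the floor it ran from -1.39 with 1 added in place of 32 to -0.34 without the 48 h arrays. The other 7 lay between -0.42 ± 0.24 (Klf5) and 0.37 ± 0.29 (P2rx7).

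**Figure D5:**
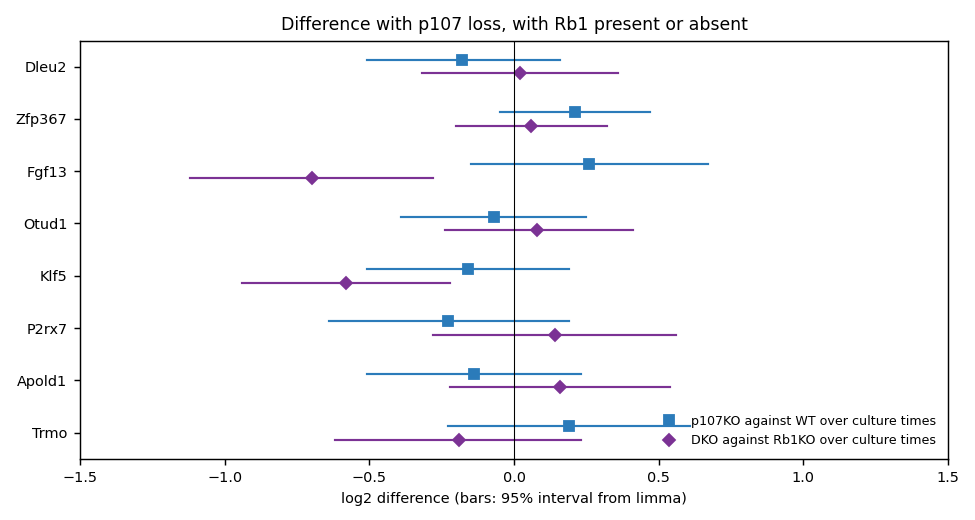
Average log2 difference in signal over the 3 culture times of p107KO from WT (squares) and of DKO from Rb1KO (diamonds), with bars for the 95% interval. All intervals include 0 except those of Fgf13 (-0.70) and Klf5 (-0.58) for DKO against Rb1KO.

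On chromosome 14, no tested gene around Dleu2 had a difference near its 2.83 in Rb1KO against WT. Of 9 tested genes around Dleu2, 3 were higher in Rb1KO than in WT and 0 lower, against 10.4% and 8.66% of all tested genes called higher and lower. These were Kpna3, an importin (0.55 ± 0.11, limma adjusted p = 0.00115), Spryd7 (0.45 ± 0.11, adjusted p = 0.00426) and Rnaseh2b, a subunit of a ribonuclease that clears RNA from DNA (0.38 ± 0.08, adjusted p = 0.00217). Trim13, the nearest neighbour, gave -0.27 ± 0.13 (adjusted p = 0.146), and Ebpl (-0.09 ± 0.11), Rcbtb1 (-0.01 ± 0.11), Setdb2 (0.18 ± 0.12), Cab39l (0.23 ± 0.09) and Phf11d (0.32 ± 0.16) did not pass the test either. Arl11 and Dleu7 were too dim to test. Of 8 tested neighbours of Rb1 itself, 0 were higher and 2 lower, namely Sucla2 (-0.40 ± 0.11, adjusted p = 0.0140) and Rcbtb2 (-0.34 ± 0.11, adjusted p = 0.0288). Over the 374 tested genes of chromosome 14, a set added after the values were seen, 38 were higher and 36 lower, with a median of -0.11 against -0.07 for all tested genes.

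The 3 nearest tested genes on each side of each of the 8, in RefSeq order, were looked at in the same way, a choice also made after values were seen. Of these 48 neighbours, 15 were higher in Rb1KO than in WT and 1 lower, against 10.4% and 8.66% of all tested genes. Their median was 0.10 against -0.07 for all tested genes. In DKO against p107KO, 7 of them were higher and 0 lower, against 4.49% and 2.64% of all tested genes. The largest was Lockd, a noncoding RNA gene beside the cell cycle inhibitor Cdkn1b and next to Apold1, with 1.69 ± 0.25 in Rb1KO (limma adjusted p = 4.09e-05) and 1.41 ± 0.36 in DKO (adjusted p = 0.0144). Cdkn1b itself gave 0.23 ± 0.12 (adjusted p = 0.183). Beside Trmo, Hemgn, a nuclear protein of red cell precursors, gave 0.64 ± 0.14 (adjusted p = 0.00202), Anp32b 0.46 ± 0.10 and Nans 0.47 ± 0.09, while Xpa, a DNA repair gene, gave -0.48 ± 0.12 (adjusted p = 0.00820). Beside Klf5, none of the 6 passed the test. P2rx4, the neighbour and paralogue of P2rx7, gave 0.01 ± 0.21.

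Each gene was set against its family, where limma called 10.4% of all tested genes higher and 8.66% lower in Rb1KO than in WT. Counts near these shares are not read as a result about a family. Of 16 tested Krüppel-like and SP factors other than Klf5, 3 were higher in Rb1KO than in WT and 2 lower. Higher were Klf10 (1.10 ± 0.11, limma adjusted p = 2.48e-07), Sp3 (0.89 ± 0.19, adjusted p = 0.00171) and Klf11 (0.67 ± 0.11, adjusted p = 0.000181). Klf6 (-0.53 ± 0.11, adjusted p = 0.000857) and Klf7 (-0.58 ± 0.20, adjusted p = 0.0414) were lower. Klf1, the factor that drives red cell maturation, gave 0.15 ± 0.12. Of the other 12 tested OTU deubiquitinases, 2 were higher, Zranb1 (0.76 ± 0.10, limma adjusted p = 9.16e-06) and Otud4 (0.45 ± 0.15, adjusted p = 0.0316), and 3 lower, Yod1 (-0.52 ± 0.10), Tnfaip3 (-0.49 ± 0.16) and Vcpip1 (-0.31 ± 0.10). Of the other 20 tested tRNA methyltransferase genes, Trmt10a was higher (0.52 ± 0.10, limma adjusted p = 0.000655), and Mettl1 (-0.58 ± 0.19) and Wdr4 (-0.43 ± 0.14), the subunits of a complex that methylates guanine in tRNA, were lower. None of the other 8 tested P2X receptors and partners and none of the other 4 tested fibroblast growth factors and receptors was called in Rb1KO against WT.

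Other lists bear on the known roles. Of 61 tested E2F target genes for G1/S entry and DNA replication, 44 were higher and 1 lower in Rb1KO than in WT, against 10.4% and 8.66% of all tested genes. Their median was 0.53 against -0.07 for all tested genes. In DKO against p107KO, 34 of them were higher and 0 lower, against 4.49% and 2.64% of all tested genes. Those with the smallest adjusted p in Rb1KO against WT were Slbp, which binds histone messenger RNA (1.10 ± 0.07, limma adjusted p = 7.98e-10), the recombination gene Rad51c (1.65 ± 0.13, adjusted p = 1.04e-08), the checkpoint adaptor Clspn (1.07 ± 0.09, adjusted p = 1.62e-08) and the histone chaperone Asf1b (1.12 ± 0.10, adjusted p = 3.02e-08). In WT between 0 and 48 h, 50 of the 61 fell and 1 rose, against 30.5% and 20.2% of all tested genes. The median was -1.01 for the 61 and -0.17 for all tested genes. Of 14 tested immediate early genes, the class to which Apold1 is often assigned, 3 were higher and 3 lower in Rb1KO than in WT. Over all tested genes these shares were 10.4% and 8.66%. The median of the 14 was -0.21. The phosphatase gene Dusp1 (0.89 ± 0.09), Ier3 (0.69 ± 0.11) and the AP-1 subunit Fos (0.63 ± 0.16) were among the higher ones, and Zfp36, which destabilises messenger RNA (-0.58 ± 0.11), was lower. These lists were put together with earlier results of these data known.

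Across the 12 group means, the pattern of each gene was compared with that of all tested genes by Pearson's r of log2 values, as a description. Zfp367 was most like Tmpo (0.989), which encodes a protein of the nuclear lamina, Rbm15 (0.989) and Rfwd3 (0.988). Trmo was most like Srsf4 (0.979), Rnf8 (0.967) and Sirt1 (0.961), Dleu2 like Tent2 (0.975), Apold1 (0.962) and Brk1 (0.962), and Apold1 like Adamts6 (0.969), Rsph3a (0.967) and Dleu2. P2rx7 was most like Snap29 (0.960), Cibar1 (0.959) and Il11 (0.959), Otud1 like Dynll2 (0.964), Nfyb (0.962) and 2500002B13Rik (0.958), Fgf13 like Inafm1 (0.957), Dcaf1 (0.953) and Kansl3 (0.949), and Klf5 like Heca (0.946), Nr3c1 (0.935) and Cdkn2aip (0.934). Between the 8 themselves, r was highest for Dleu2 with Apold1 (0.96) and for Zfp367 with Trmo (0.93), and lowest for Fgf13 with P2rx7 (0.04). The 12 means share arrays scaled together and the same contrast that picked the genes.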

How the data were processed

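Total RNA of 27 samples in 12 groups (genotype by culture time) was read on Affymetrix mouse genome arrays. The authors deposited MAS5 signal intensities, on a linear scale and made with GCOS 1.4 per the submitters' processing notes, and scaled the arrays so that the mean of each, trimmed by 2% at both ends, was 491.1 to 497.47. Arrays have no read depth, and their number limits the precision.

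Values were analysed as log2(signal + 32), which shrinks fold changes of dim genes. A gene was read from its brightest probe set among the 34945 with 1 symbol, and the dimmest 40% of 18193 genes were left out. limma 3.58.1 in R 4.3.3 fitted 12 group means over all arrays (15 residual and 7.14 prior degrees of freedom), so the 3 groups with 1 array borrow the spread of the others. Adjusted p is Benjamini-Hochberg over 10916 genes, two-sided, with a threshold of 0.05. Single probe sets were fitted likewise over all 34945. The fit was tested on simulated data. Alternatives were other added constants, filters, normalization, probe set means, weights, a replicate block and arrays left out.

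Of the planned tests, those of the WT and p107KO courses and of the difference between the Rb1 effects are not independent of the picking, so the 8 genes get no p there. The tested comparisons also use arrays that the picking used, and their p-values carry that limit. The 8 genes, the lists and the tests were chosen with earlier results of these data known. The rule named all probe sets of the 8, the targeted genes, the 3 genes most like each by Pearson's r, up to 4 genes per list by adjusted p in Rb1KO against WT, and family and chromosome 14 genes. Klf1, Cdkn1b, P2rx4, Nanos1, Zbtb32 and the neighbours were named after their values were seen.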

Additional observations from a re-analysis of the deposited data

Results flagged for a closer look

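In 3 of 32 groups of 4 or 5 arrays looked at, over the 16 probe sets of the 8 genes, the highest array stood far from the others of its group by Dixon's criterion, which chance meets in about 1 of 20 groups. Dleu2 read by 1427410_at gave 927.6 in replicate 5 of Rb1KO at 0 h, against 572.2 to 633.7 in the other 4 arrays. The same array gave 398.2 for Dleu2 read by 1427411_s_at, against 228.8 to 242.7, and it is one of the 4 arrays apart. Apold1 gave 1982.1 in replicate 4 of Rb1KO at 24 h, against 985.1 to 1133.7 in the other 3 arrays. All of these arrays lay on the side away from WT.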

How the results depend on the processing

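Of 400 recomputed values of the 8 genes in the 2 tested comparisons, 376 kept their direction and their side of the threshold, 3 passed it newly (Fgf13 and Klf5 between DKO and Rb1KO), 0 were lost and 21 changed sign, none of them past the threshold under any setting. Between p107KO and WT, Fgf13 turned to -0.20 with the mean over probe sets and -0.11 without the 48 h arrays (-0.11 to 0.38 with 1 array left out), and Otud1 to 0.07 without the 48 h arrays (-0.14 to 0.07 with 1 left out). Between DKO and Rb1KO, Dleu2 turned to 0.00 with quantile normalization and -0.13 without the 4 arrays apart (-0.19 to 0.12 with 1 left out), Zfp367 to -0.04 without the 48 h arrays (-0.04 to 0.16 with 1 left out), Otud1 to -0.05 without 1 DKO array of 0 h (-0.05 to 0.27 with 1 left out), P2rx7 to -0.08 with the mean over probe sets and -0.17 without the 4 arrays apart (-0.14 to 0.21 with 1 left out), and Trmo to 0.00 with the replicate block. In the comparisons given as a description, 31 of 400 values (those used by the picking) and 49 of 800 (the others) moved by more than the spread between replicates.

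Counts over all genes moved more. Between p107KO and WT, 2 genes became 9 with array weights, 5 with the replicate block, 6 with only the groups compared and 7 without the 4 arrays apart, and 2 to 16 with 1 array left out (16 without WT replicate 1 of 48 h, 10 without p107KO replicate 2 of 24 h, 4 without WT replicate 1 of 24 h). Between DKO and Rb1KO, 109 became 46 without a filter, 694 with array weights, 215 with the replicate block, 18 with only the groups compared and 5 without the 4 arrays apart. With 1 array left out this count ran from 2 (without the DKO array of 24 h, which drops that time) to 257 (without Rb1KO replicate 5 of 0 h), and was 13 or 20 without a DKO array of 0 h, 33 or 55 without an Rb1KO array of 48 h, 62 or 53 without Rb1KO replicate 1 or 2 of 0 h and 171 without Rb1KO replicate 1 of 24 h. For the difference between the Rb1 effects, 0 became 1 with an added constant of 1, and 0 to 1 with 1 array left out.

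For p107KO at 24 h against 0 h, 3198 became 1131 without the arrays that had Y-linked signal and 2038 to 3010 with 1 array left out (2038 without replicate 1 of 0 h, 2064 without replicate 1 of 24 h). For Rb1KO against WT, 2078 became 1049 without the arrays that had Y-linked signal, 696 without the 48 h arrays and 1348 to 2385 with 1 array left out (1348 without Rb1KO replicate 2 of 48 h). For DKO against p107KO, 778 became 1288 with array weights, 231 without the 48 h arrays and 218 to 778 with 1 array left out (218 and 223 without the single 48 h arrays, 366 without the DKO array of 24 h). With 1 array left out, the other courses gave 2911 to 3805 (WT at 24 h), 4061 to 5028 (WT at 48 h) and 2507 to 2678 (p107KO at 48 h), against 4156, 5539 and 3274. The cause was not tested, except that fewer arrays or genes entered where some were left out.

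Deviations of same-numbered arrays correlated with r from -0.163 to 0.425 over 37 pairs, of which 27 were over 0 and 16 over 0.1. Not every pair passed 0.1, so the numbers were not taken to pair the arrays. With the replicate block, Klf5 differed by -0.70 between DKO and Rb1KO and passed the threshold (limma adjusted p = 0.042), and no other tested call among the 8 changed with it. Every DKO array had Y-linked signal, so no DKO comparison could be made without such arrays.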

Other observations

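Of 11 tested heat shock genes, 4 were higher and 2 lower in Rb1KO than in WT, against 10.4% and 8.66% of all tested genes. Hspa1b and Hspa1a, near-identical inducible chaperone genes whose probe sets may read both, ranked 1 and 3 of all tested genes, with 3.24 ± 0.18 and 2.78 ± 0.18 on the log2 scale (limma adjusted p = 2.12e-11 and 3.83e-10). The cochaperone gene Dnajb1 gave 1.00 ± 0.12 (adjusted p = 2.90e-06) and Hsp90aa1 0.58 ± 0.12 (adjusted p = 0.00137). The mitochondrial chaperonin genes Hspe1 (-0.32 ± 0.10, adjusted p = 0.0293) and Hspd1 (-0.33 ± 0.11, adjusted p = 0.0389) were lower. In DKO against p107KO the same 4 were higher and 0 of the 11 lower, against 4.49% and 2.64% of all tested genes.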
